A study of Homo sapiens with 4 samples.

Results

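The genes of the insulin-like growth factor (IGF) axis described here were the ligands IGF1 and IGF2, the receptors IGF1R and INSR, and the binding proteins IGFBP1 to IGFBP6. They were found through the RefSeq accession of each array probe, and all 10 genes had a probe, of 17721 genes with a probe in all. Together they had 18 probes on 45 spots. IGF1 had 4 probes, IGFBP5 had 3, IGF2, IGF1R and IGFBP3 had 2 each, and the others had 1 each.

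Messenger RNA levels were measured in OVSAYO cells, an established human line of ovarian clear cell carcinoma, with 4 single-color Agilent whole human genome arrays on 1 slide. The 4 conditions, with 1 array each, were cells given a nonsilencing control siRNA (NS-si), cells given a pool of siRNAs against the transcription factor Sp1 (Sp1-si), and both kinds of cells treated with 0.5 mM CoCl2 for 4 h (NS-si → CoCl2 and Sp1-si → CoCl2). All cultures were transfected with Lipofectamine and, by the sample labels, kept for 40 h. The paper's figure legend gives a shorter culture time. CoCl2 is a chemical that mimics hypoxia by stabilizing hypoxia-inducible factors, and the comparisons asked which genes respond to it and whether Sp1 is needed. On these arrays the control siRNA and the Sp1 pool came from different makers, and the pool was the only one against Sp1. An effect of loss of Sp1 and any other effect of this pool therefore cannot be told apart here. The paper states that more than 1 siRNA sequence was used per target protein in the study. With 1 array per condition there was no replicate check and no p-value, and precision is limited by this number of arrays. The SDs given below are between spots, combined over the arrays of a ratio or difference, and hold no variation between cultures. They are for single spots and not for the mean over the spots of a probe.

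IGF1 and IGF2 are secreted growth factors that act through the receptor tyrosine kinase IGF1R and, for IGF2, also through the insulin receptor. The IGF binding proteins hold the ligands outside the cell, where they carry them, keep them from the receptors or release them after cleavage by proteases. Sp1 binds GC-rich boxes found near the start of many genes, and hypoxia-inducible factors bind hypoxia response elements.

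Signals are Agilent processed intensities, and a level is the log2 signal minus that of the array's 75th percentile, which was 1141.9 for NS-si, 1100.0 for Sp1-si, 976.7 for NS-si → CoCl2 and 1284.9 for Sp1-si → CoCl2. A ratio is a difference of 2 levels of the same probe, and a probe was called raised or lowered at a log2 ratio of 1 or more in size, which is 2-fold. Of 43376 spots on each array, 33081 to 34542 were well above background, and none was saturated. The silencing was visible in the targeted gene. The brightest SP1 probe (10 spots) read 553.1 (NS-si), 39.16 (Sp1-si), 429.1 (NS-si → CoCl2) and 38.72 (Sp1-si → CoCl2), a log2 ratio of Sp1-si to NS-si of -3.77 without CoCl2 and -3.87 with it. The brightest probe of VEGFA, a gene known to respond to hypoxia, rose with CoCl2 by 2.34 on the log2 scale in control cells and by 2.86 after silencing. The clear cell carcinoma markers NAPSA, ANXA4 and PAX8 and all 5 epithelial markers were well above background on every array. Of the markers of other cell types, PTPRC of leukocytes, PECAM1 and CDH5 of endothelium and COL3A1 of fibroblasts were above background on none, while COL1A2, DCN, LUM, VWF, CD68 and CD3E were detected on all 4 arrays. Their part in the results was not tested.

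IGFBP3, the main carrier of IGFs in plasma, had the widest changes of the axis over the 4 arrays. Its brightest probe, averaged over 10 spots, read 22033.8 (NS-si), 1929.4 (Sp1-si), 39356.8 (NS-si → CoCl2) and 20262.7 (Sp1-si → CoCl2). The Sp1-si array thus stood far below the other 3, and NS-si → CoCl2 was highest. On the Sp1-si array the 10 spots lay between 1863.8 and 1991.0, and on the NS-si array between 20975.4 and 22885.6, with no overlap. Because RNA came from whole cultures, fewer expressing cells and less RNA per cell cannot be told apart.

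Without CoCl2, the IGFBP3 signal after Sp1 silencing was 11.0-fold under that of the control, at a log2 ratio of -3.46 (SD 0.048 between spots), the 10th lowest of the measured probes. With CoCl2 the gap was narrower, at a log2 ratio of -1.35 (SD 0.061), or -0.96 if arrays are not scaled. CoCl2 raised the log2 signal by 1.06 (SD 0.054) in the control cells and by 3.17 (SD 0.056), or 8.99-fold, after silencing. The response was therefore 2.11 (SD 0.078) larger on the log2 scale after Sp1 silencing. That difference was the 16th highest of the 30234 probes that all 4 arrays measured above background, and the response in Sp1-si cells was the 34th highest. Both values rest on the same low Sp1-si array. By this probe the level reached in Sp1-si → CoCl2, 3.98, was under the 4.27 of untreated NS-si cells, while by the other probe it was above it, at 1.11 against 0.94.

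The other IGFBP3 probe, on a single spot, also read lowest in Sp1-si and highest in NS-si → CoCl2, but placed Sp1-si → CoCl2 above NS-si. It read 2191.4 (NS-si), 238.8 (Sp1-si), 5507.3 (NS-si → CoCl2) and 2780.3 (Sp1-si → CoCl2). Its log2 ratios were -3.14 and -1.38 for Sp1-si to NS-si without and with CoCl2, and 1.55 and 3.32 for CoCl2 in control and silenced cells. Every one of these passed 2-fold, and the difference of the CoCl2 responses was 1.76, the 38th highest. The response in NS-si cells was 1.06 by the brighter probe, close to the 2-fold line, and was 0.93 with quantile scaling, 0.84 with no scaling and 0.99 with the deposited table.

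**Figure D1:**
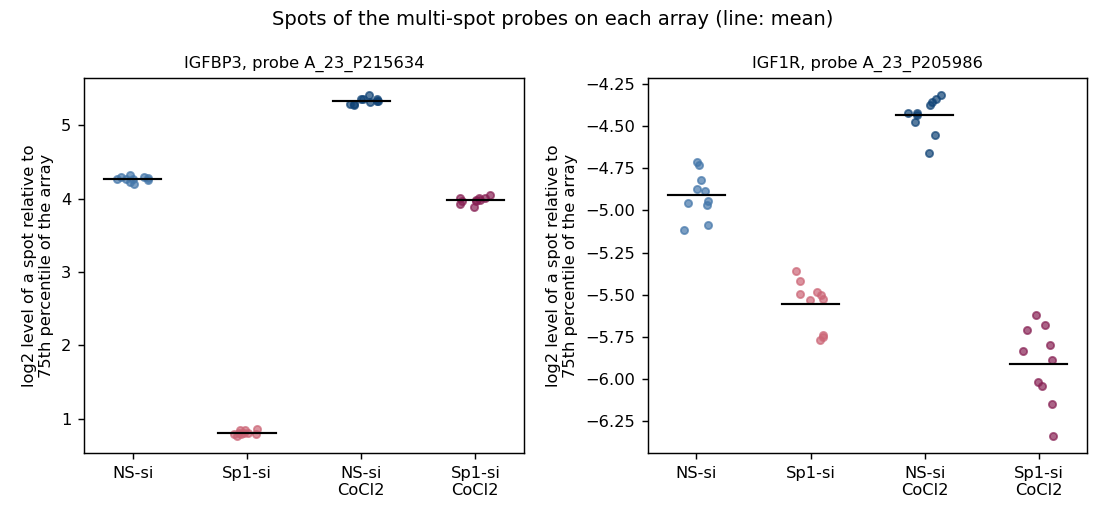
Level of each spot of the 10-spot probes of IGFBP3 and IGF1R on the 4 arrays, with lines at the means. Levels are log2 signals scaled per array as defined above. The IGFBP3 spots of the Sp1-si array lie between 0.761 and 0.856 (processed signals of 1863.8 to 1991.0), under those of every other array.

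The promoter of IGFBP3 is printed because this gene moved most, that of IGF1R because both its probes were lower after Sp1 silencing, and that of INSR because it moved the other way. Each sequence is the 250 bases before the RefSeq gene start (GRCh38.p14), read on the gene's strand, at chr7:45921273-45921522 (minus strand) for IGFBP3, chr15:98648289-98648538 (plus strand) for IGF1R and chr19:7294415-7294664 (minus strand) for INSR. Capitals mark the GC box core GGGCGG and the hypoxia response element core, ACGTG or GCGTG, on either strand.
IGFBP3: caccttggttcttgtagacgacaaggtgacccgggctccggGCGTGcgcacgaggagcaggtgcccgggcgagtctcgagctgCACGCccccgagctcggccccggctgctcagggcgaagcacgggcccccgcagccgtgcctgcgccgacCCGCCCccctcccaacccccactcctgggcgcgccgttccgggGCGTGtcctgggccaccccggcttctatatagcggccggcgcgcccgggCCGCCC
IGF1R: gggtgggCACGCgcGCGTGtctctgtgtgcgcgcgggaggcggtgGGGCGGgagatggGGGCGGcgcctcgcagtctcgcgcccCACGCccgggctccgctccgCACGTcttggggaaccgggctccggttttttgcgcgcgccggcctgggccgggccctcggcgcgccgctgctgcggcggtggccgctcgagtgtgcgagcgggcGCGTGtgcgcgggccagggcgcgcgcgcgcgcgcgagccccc
INSR: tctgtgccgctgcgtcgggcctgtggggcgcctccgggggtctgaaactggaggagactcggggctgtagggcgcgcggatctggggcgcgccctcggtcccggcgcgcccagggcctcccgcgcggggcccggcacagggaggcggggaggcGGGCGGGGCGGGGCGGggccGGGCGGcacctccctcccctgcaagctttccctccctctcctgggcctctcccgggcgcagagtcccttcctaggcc

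IGFBP3 held 2 GC box cores, the nearest ending at the base before the start, and 3 hypoxia response element cores. IGF1R held 2 and 5. INSR held 4 GC box cores, of which 3 in a row overlap by 1 base and the last stands apart, and no hypoxia response element core in these letters. Of the 35116 promoters of this length, 42.6% held a GC box core and 43.2% a hypoxia response element core, so both are common. A match is a description of the letters and not a bound site. Promoters of 8 of the 10 genes were in the table used.

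Across all 7 genes of the axis with a ratio, CoCl2 in NS-si cells raised 1 gene, IGFBP3, and lowered 0, against 4.21% raised and 3.54% lowered of 15115 genes by their brightest probe. The median log2 ratio of these genes was 0.49, and that of all genes was 0.004. In Sp1-si cells CoCl2 raised 3 genes and lowered 0, against 3.72% and 3.97% of all genes, with a median of 0.34 against -0.006. The 3 were IGFBP3, IGFBP1 and INSR. Without CoCl2, Sp1 silencing raised 0 genes and lowered 1, IGFBP3, against 6.20% and 6.19% of all genes, with a median of -0.47 against -0.009. With CoCl2, it raised 1, INSR, and lowered 1, IGFBP3, against 7.20% and 8.04%, with a median of -0.63 against -0.03. The comparisons share arrays pairwise, so they are not independent of each other. The medians of the axis depended on the processing, and some alternatives also keep dim probes. Over the alternatives they were 0.144 to 0.495 for CoCl2 in NS-si cells and 0.078 to 0.56 in Sp1-si cells. For the silencing they were -0.527 to -0.108 without CoCl2 and -0.631 to -0.096 with it.

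**Figure D2:**
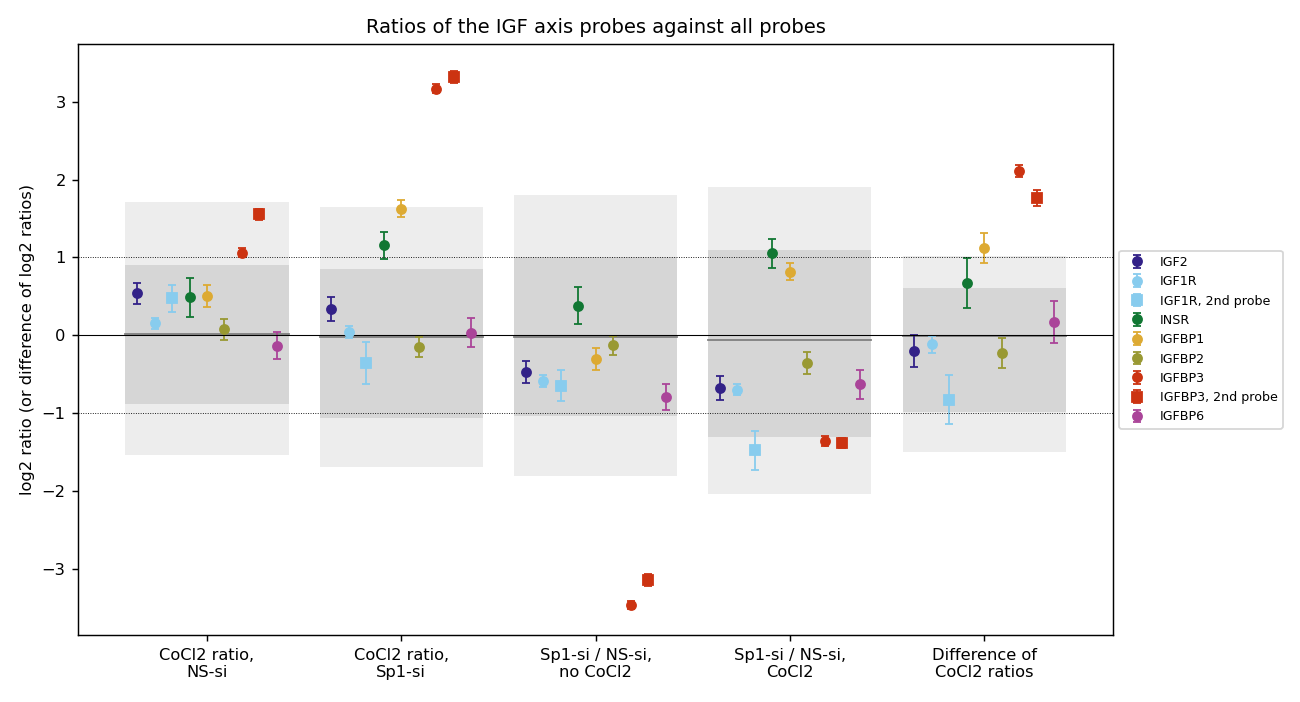
Log2 ratios of the genes of the IGF axis in the 4 comparisons (circles, brightest probe, squares, the other probe, error bars, SD between spots), over bands holding the 1st to 99th and 5th to 95th percentiles and a line at the median of all measured probes. The last column is the difference of the CoCl2 log2 ratios, Sp1-si minus NS-si. IGFBP3 lies at -3.46 for Sp1-si to NS-si without CoCl2, far under the band.

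IGFBP1, a small binding protein known to respond to insulin and to hypoxia, was dim in 3 conditions and higher in the last. Its single probe read 54.18 (NS-si), 42.34 (Sp1-si), 65.72 (NS-si → CoCl2) and 152.5 (Sp1-si → CoCl2). Sp1-si → CoCl2 was thus the highest, and the other 3 lay between 42.34 and 65.72. CoCl2 changed it by a log2 ratio of 0.50 (SD 0.14, from probes of like signal) in the control and 1.62 (SD 0.11) after silencing, a difference of 1.12 (SD 0.19). Of the 7 genes, 2 (IGFBP3 and IGFBP1) passed a difference of 1 between the CoCl2 responses and 0 passed -1, against 0.994% and 2.86% of 14283 genes. With background corrected by normexp in place of Agilent's own correction, the IGFBP1 response in Sp1-si cells was 0.82, under 2-fold, and the difference was 0.43.

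Both other binding proteins with a signal stayed under 2-fold in all comparisons. IGFBP6, which prefers IGF2 as its ligand, read 41.5 (NS-si), 23.04 (Sp1-si), 32.39 (NS-si → CoCl2) and 27.56 (Sp1-si → CoCl2). Its Sp1-si signals were under their NS-si partners both without CoCl2 (log2 ratio -0.80, SD 0.17) and with it (-0.63, SD 0.19), and differed with CoCl2 by -0.13 and 0.03, less than its spot SD. IGFBP2, an abundant binding protein of body fluids, read 72.2, 63.56, 65.04 and 66.85 in the same order, with log2 ratios between -0.36 and 0.08. Neither IGFBP4 nor IGFBP5 passed the background call on any array: the IGFBP4 signals were 1.782 to 3.33, and those of the 3 IGFBP5 probes 1.365 to 5.094, against the lowest signals called above background of 6.72 to 10.2.

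**Figure D3:**
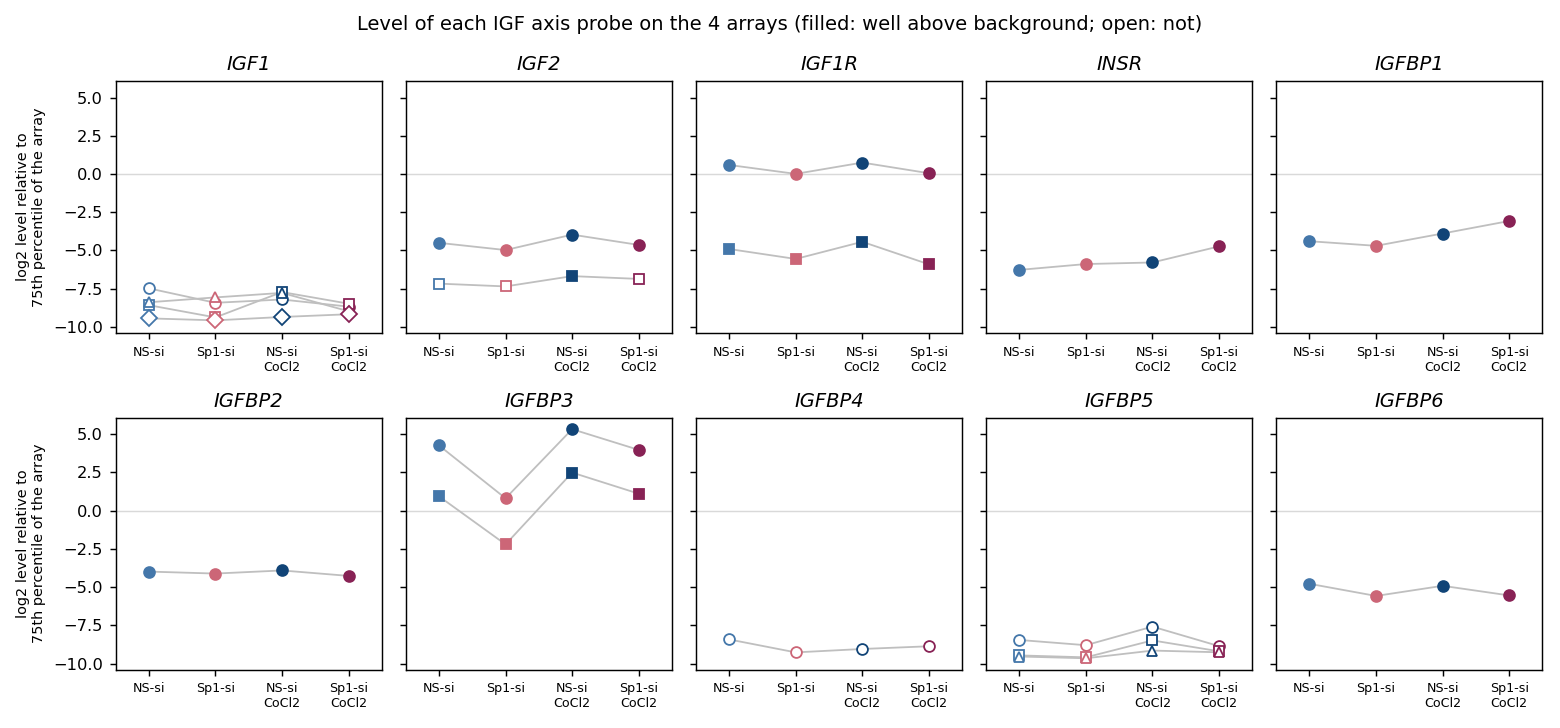
Level of each probe of the genes of the IGF axis on each array (log2 signal minus the array's 75th percentile, filled, well above background, open, not). Marker shapes separate the probes of a gene. By its brightest probe, IGFBP3 drops to 0.81 in Sp1-si from 4.27 in NS-si and stands at 3.98 in Sp1-si → CoCl2. All probes of IGF1, IGFBP4 and IGFBP5 are open in every condition.

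Among the receptors, IGF1R, which binds both IGF ligands, read lower after Sp1 silencing, mostly by less than 2-fold. Its brighter probe read 1720.4 (NS-si), 1106.3 (Sp1-si), 1639.7 (NS-si → CoCl2) and 1331.7 (Sp1-si → CoCl2). The log2 ratio of Sp1-si to NS-si was -0.58 (SD 0.078) without CoCl2 and -0.70 (SD 0.065) with it, and CoCl2 moved it by 0.16 and 0.04. The other probe, dimmer and on 10 spots, read 38.02, 23.36, 45.16 and 21.4 in the same order, with ratios of -0.65 (SD 0.20) and -1.47 (SD 0.25) for the silencing. Both probes were lower in each Sp1-si array than in its NS-si partner, and 1 of 4 of these ratios passed 2-fold, which it did not with normexp (-0.74). The mean over both probes was -1.08 with CoCl2, past 2-fold.

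INSR, the insulin receptor, moved the other way. Its probe read 14.75 (NS-si), 18.54 (Sp1-si), 17.68 (NS-si → CoCl2) and 48.19 (Sp1-si → CoCl2), so Sp1-si → CoCl2 was again the highest. The log2 ratio was 1.15 (SD 0.17) for CoCl2 in Sp1-si cells and 1.05 (SD 0.19) for the silencing with CoCl2, against 0.49 (SD 0.25) and 0.38 (SD 0.24) for the matching comparisons. These signals are near the lowest called above background, and with normexp the first 2 of these ratios were 0.14 and 0.06.

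Of the ligands, IGF2 was detected and IGF1 was not. The brighter IGF2 probe read 50.31 (NS-si), 34.96 (Sp1-si), 62.49 (NS-si → CoCl2) and 51.54 (Sp1-si → CoCl2), with log2 ratios between -0.67 and 0.54, none past 2-fold. The other IGF2 probe passed the background call in NS-si → CoCl2 alone, at 1.41-fold its uncalled NS-si signal after scaling. Its unscaled signal of 11.03 in Sp1-si → CoCl2 was above the 9.518 of NS-si → CoCl2 but did not pass the call. After scaling the order was the reverse, with levels of -6.86 in Sp1-si → CoCl2 and -6.68 in NS-si → CoCl2. The 4 IGF1 probes read 1.443 to 6.391, not well above background on any array.

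Other genes of IGF signaling and of IGF handling were read from a list of 34 genes, of which 30 or 31 had a ratio in a comparison. CoCl2 in NS-si cells raised 3 and lowered 1 of 31, against 4.21% and 3.54% of all genes, and in Sp1-si cells raised 3 and lowered 3 of 30, against 3.72% and 3.97%. STC2, a secreted inhibitor of the protease that cleaves IGFBPs, read 110.2 (NS-si), 56.98 (Sp1-si), 819.1 (NS-si → CoCl2) and 615.2 (Sp1-si → CoCl2), log2 ratios with CoCl2 of 3.12 and 3.21. Its level was thus high in both CoCl2 conditions. IRS2, an adaptor of both receptors, rose by 2.19 and 1.47 by its brightest probe, while its other 2 probes gave 1.32 and 0.84 in control cells and 0.70 and -0.07 in silenced cells. FOXO1, a transcription factor restrained by this pathway, fell with CoCl2 by 1.32 and 1.58, and FOXO3 of the same family rose by 1.40 in NS-si cells, with a ratio of 0.997 in Sp1-si cells. The other FOXO3 probe gave 1.49 and 1.11, past 2-fold in each. PIK3R3 had ratios of -0.93 and -1.76 by its brightest probe and -1.33 and -1.002 by the other. In Sp1-si cells SOS1 rose by 1.30 (0.14 with normexp) and IGF2BP3 fell by 1.45. The median of the list was 0.17 in control and 0.12 in silenced cells, against 0.004 and -0.006 for all genes.

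Sp1 silencing without CoCl2 raised 6 and lowered 1 of 30, against 6.20% and 6.19% of all genes, and with CoCl2 raised 2 and lowered 1 of 31, against 7.20% and 8.04%. The medians were 0.02 and 0.10, against -0.009 and -0.03 for all genes. HTRA1, a secreted protease known to cleave IGFBPs, read 307.8 (NS-si), 1152.6 (Sp1-si), 221.3 (NS-si → CoCl2) and 1111.7 (Sp1-si → CoCl2), so both Sp1-si arrays were higher, by 1.96 and 1.93 on the log2 scale. IGF2BP3, which binds the IGF2 mRNA, read 15321.2, 5373.8, 13582.5 and 2294.7 in the same order and was lowered by 1.46 and 2.96, with the lowest level in Sp1-si → CoCl2. FOXO4 rose by 1.86 and 1.42 by its brightest probe, but its other probe gave 0.29 and 0.16, and with normexp the brightest gave 0.89 and 0.68. STC1 (1.73), PIK3R3 (1.07) and PDPK1 (1.02) passed 2-fold without CoCl2 and not with it by their brightest probes, but another probe of PIK3R3 (1.33) and of PDPK1 (1.14) did with it. With normexp, STC1 (0.58) and PDPK1 (0.93) were under 2-fold. The CoCl2 responses differed by -1 or less for 4 of 30 genes, among them IGF2BP3, STC1 and PDPK1, against 2.86% of all genes, with a median of -0.008 over the list against 0.016. With no scaling the differences of STC1 (-0.80) and PDPK1 (-0.57) did not pass -1, nor did they with normexp (-0.64 and -0.92). For PDPK1 the brightest probe gave -1.02, and the other 2 gave 0.14 and -0.94.

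**Figure D4:**
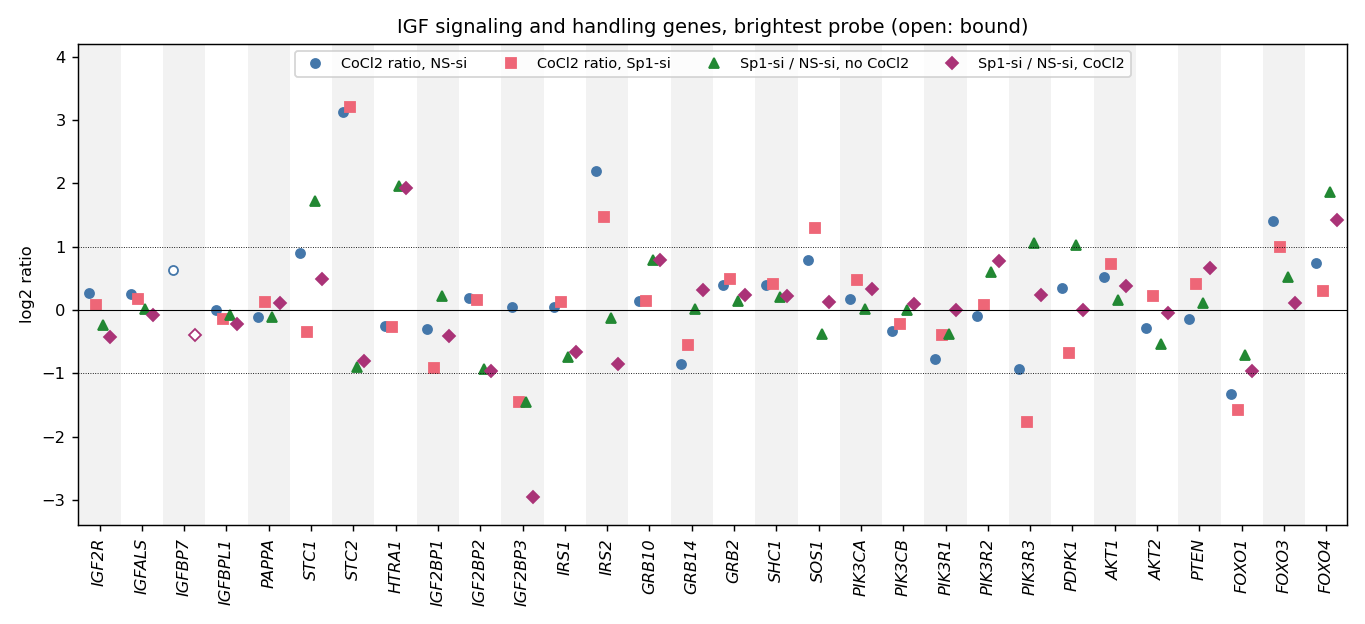
Log2 ratios of the brightest probe of 30 genes of IGF signaling and handling, in the 4 comparisons (open symbols are bounds). STC2 stands at 3.12 and 3.21 for CoCl2, and IGF2BP3 at -2.96 for Sp1-si to NS-si with CoCl2.

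The profile of IGFBP3 over the 4 arrays was compared with those of 20926 probes with a gene symbol and a signal well above background on all 4 arrays, by the Euclidean distance between centered log2 levels. For the other IGFBP3 probe the closest profiles were the brightest IGFBP3 probe (0.39), TXNRD1 (0.76) and EID3 (0.83), and for the brightest they included the other IGFBP3 probe and EID3 (0.93). With 4 arrays, such a distance rests on few points.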

How the data were processed

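RNA of 4 OVSAYO cultures was measured on single-color Agilent whole human genome arrays (1 per condition). Per the file headers, the authors' scanner output, made with Agilent Feature Extraction 10.5.1.1, holds background-subtracted processed intensity per spot, with flags for outliers and for signals well above background. A deposited value table is this intensity times a constant per array (1.425, 1.52, 1.58 and 1.253, in the order NS-si, Sp1-si, NS-si → CoCl2, Sp1-si → CoCl2), on a linear scale with no centering.

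Control and outlier spots (66 to 73 per array) were left out, log2 intensities were centered on the 75th percentile of each array, and spots were averaged per probe. A probe counted as above background where at least 50% of its spots were. Where 1 array of a pair was above background, the ratio is a bound. The brightest probe stood for a gene. Spot SDs of single-spot probes are the median over the 51 probes with 10 spots and the nearest signal. Median SDs were 0.062 to 0.065 for the brightest and 0.39 to 0.45 for the dimmest of 264 such probes. Named genes were all probes of the axis and the listed pathway genes with a ratio of 1 or more in size. Some genes of these lists are counted but not reported here by name. Genes and lists were chosen with earlier results of these data known. Accessions were named through RefSeq, for 26222 of 41000 probes, and promoters are from RefSeq. Python 3.11.15, R 4.3.3 and limma 3.58.1 were used. Alternatives were quantile and median scaling, no scaling, another percentile set, the deposited table, a floor on dim signals, a 1.5-fold call, means over probes and normexp background correction, for which the median spot signals were used.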

Additional observations from a re-analysis of the deposited data

Results flagged for a closer look

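For 2 probes of the axis the 2 arms of a comparison had opposite signs, with both ratios larger than their spot SD, and neither difference was tested, since each arm holds 1 array. The dimmer IGF1R probe, on 10 spots, had a log2 CoCl2 ratio of 0.47 with the control siRNA and -0.35 after silencing. The second of these, with a spot SD of 0.27, was -0.217 with quantile scaling, -0.245 with median scaling, -0.126 with no scaling and -0.257 with normexp. Under those settings it was thus smaller than that SD. The SD is for single spots in the main setting and is not the error of a mean over 10 spots. The brighter IGF1R probe had 0.16 and 0.04, both of the same sign. The IGFBP1 probe had a log2 ratio of Sp1-si to NS-si of -0.30 without CoCl2 and 0.82 with it. With normexp the first was -0.078, smaller than the spot SD of 0.14 that it had in the main setting.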

How the results depend on the processing

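Of the alternatives to the summary results, 70 left the value within its margin and 12 moved it, and for single genes and list medians 658 stayed within it, 146 moved and 26 reversed. The IGFBP3 ratios kept their direction throughout. By the brightest probe or the mean over probes, they were 0.84 to 1.31 and 3.11 to 3.39 for CoCl2 in NS-si and Sp1-si cells. They were -3.51 to -3.30 and -1.37 to -0.96 for Sp1-si to NS-si without and with CoCl2, and 1.93 to 2.56 for the difference. By the other probe the ranges were, in the same order, 1.33 to 1.56, 2.93 to 3.54, -3.20 to -2.79, -1.38 to -0.99 and 1.48 to 2.21. The number of genes of the axis past 2-fold with CoCl2 in NS-si cells went from 1 to 0 under quantile scaling, no scaling and the deposited table, where IGFBP3 was under 2-fold. With normexp, which was added after seeing the files and run on median spot signals, the counts were 1 for CoCl2 in Sp1-si cells, 1 for Sp1-si to NS-si with CoCl2 and 1 for the difference, since IGFBP1 and INSR were then under 2-fold, and the SP1 ratios were -2.50 and -2.64. With no scaling, IGFBP3 (-0.96) left and IGFBP1 (1.21) entered the genes past 2-fold for Sp1-si to NS-si with CoCl2. At 1.5-fold, the counts for Sp1-si to NS-si were 2 without CoCl2 and 6 with it. The share of all genes past 1.5-fold was not counted, so these counts cannot be read as particular to the axis. The SP1 ratio with CoCl2 was -3.47 with no scaling and -4.08 over all probes of the gene.

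Reversals touched values under 2-fold. With no scaling, which shifts the median of all probes by -0.206 and 0.208 for the CoCl2 ratios, -0.068 and 0.335 for the silencing ratios and 0.435 for the difference, they were IGF1R (-0.069 for CoCl2 in NS-si, 0.34 difference), IGFBP2 (-0.15 and 0.073 for CoCl2, 0.04 for silencing with CoCl2, 0.22 difference), IGF2 (0.25 difference) and the pathway medians (-0.054, -0.037 and 0.44 for CoCl2 in NS-si, silencing without CoCl2 and the difference). With the deposited table they were IGFBP2 (-0.002), IGF1R (-0.011) and IGFBP6 (-0.02), for CoCl2, and the pathway median of the difference (0.014). With normexp they were IGFBP6 (0.089 and -0.087 for CoCl2, -0.18 difference), IGFBP2 (0.028 for silencing without CoCl2), INSR and the median of the axis (-0.105 difference) and the pathway median for silencing with CoCl2 (-0.028). Over all probes IGF1R had -0.15 for CoCl2 in Sp1-si cells. The pathway median of the difference was 0.062 with quantile scaling, 0.089 with median scaling, 0.033 with the percentile over detected probes and 0.017 with a floor. The causes were not tested. No paired analysis was possible because each condition had 1 array. With normexp, calls of the dim pathway genes SOS1, STC1 and FOXO4 were also lost. Values of dim probes are limited by their signal over background.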
